A study of Homo sapiens with 4 samples.

Results

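The keratin genes of the human genome were examined for FOXC1 binding in J82 cells. The members were the 54 listed keratin genes of the type I cluster on chromosome 17 and the type II cluster on chromosome 12, out of 20163 protein-coding genes. A keratin gene was counted as holding a peak when a peak summit lay inside its gene body or within 10 kb of it. ChIP-seq, the sequencing of DNA recovered with an anti-FOXC1 antibody, was done on 2 biological replicates of J82, an established human bladder cancer cell line grown in DMEM with 10% FBS. The input libraries were made from the same line without antibody, and no group was treated or genetically altered. J82 is a single cell line, so the replicates measure the spread between its cultures and not between tumours. FOXC1 is a forkhead transcription factor. Neither keratin RNA nor keratin protein was analysed here, so the values below describe peaks and not expression, and the line could not be checked against its markers.

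Keratins build the intermediate filaments of epithelial cells. Each filament is assembled from an acidic type I and a basic type II keratin, and the partners are used in characteristic pairs that change with the kind of epithelium and its state of differentiation. In the urothelium, KRT7, KRT8, KRT18 and KRT19 are widely expressed, KRT5 and KRT14 mark basal cells, KRT13 marks intermediate cells and KRT20 marks the umbrella cells at the lumen. The genes lie in clusters by type, with the exception that the type I gene KRT18 sits beside its type II partner KRT8 on chromosome 12.

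The 7 strongest regions at keratin genes with overlapping peaks in both replicates are shown first. Strength was ranked by the weaker replicate, so a region left out can rank higher in 1 of the replicates. In replicate 1, a KRT12 region not shown (fold enrichment 4.19) ranked above the last region shown (3.18). Each line gives the hg19 reference, plus strand, for 50 bases to either side of the point midway between the summits of the replicates. Capitals mark matches on either strand to a forkhead spelling (GTAAACA, the spelling GTAAATA, the spelling ATAAACA or the spelling ATAAATA) or to the AP-1 spelling TGACTCA.
KRT7 intron 7, chr12:52641294-52641394: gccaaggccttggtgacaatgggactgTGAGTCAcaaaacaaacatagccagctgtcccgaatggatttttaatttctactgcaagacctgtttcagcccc
KRT86 intron 2, chr12:52674322-52674422: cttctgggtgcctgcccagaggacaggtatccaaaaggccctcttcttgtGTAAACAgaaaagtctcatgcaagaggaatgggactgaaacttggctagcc
KRT7 intron 6, chr12:52637929-52638029: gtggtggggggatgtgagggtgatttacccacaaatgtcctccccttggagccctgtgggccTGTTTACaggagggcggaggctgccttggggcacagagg
beyond the 3′ end of KRT23, chr17:39071820-39071920: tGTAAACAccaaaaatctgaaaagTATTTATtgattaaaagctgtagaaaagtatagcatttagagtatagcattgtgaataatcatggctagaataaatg
KRT8 and KRT18 start sites, chr12:53343731-53343831: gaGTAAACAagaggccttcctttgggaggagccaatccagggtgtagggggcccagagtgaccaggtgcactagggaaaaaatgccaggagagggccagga
long KRT8 transcripts, intron, chr12:53331809-53331909: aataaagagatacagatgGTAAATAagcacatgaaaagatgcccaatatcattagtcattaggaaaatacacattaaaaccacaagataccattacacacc
between KRT3 and KRT4, chr12:53194700-53194800: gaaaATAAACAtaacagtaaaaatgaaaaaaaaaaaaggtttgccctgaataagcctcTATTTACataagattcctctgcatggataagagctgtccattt

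The KRT7 intron 7 window held a match to AP-1 on the minus strand, 20 bp from the summit, and none to the forkhead spellings. The other 6 windows each held at least 1 forkhead match. Among all 13 such regions at keratin genes, shown or not, 8 held one. GTAAACA lay 3 bp from the summit in KRT86 intron 2, 15 bp away on the minus strand in KRT7 intron 6 and 45 bp away at the KRT8 and KRT18 start sites. The KRT8 start named here is that of its longest transcripts only, and the main KRT18 start was 879 bp from the summit. A match is a string of letters in the window and was not tested as a binding site.

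Of the 54 keratin genes, 20 (37%) had a peak in replicate 1, where 39.0% of all protein-coding genes did. In replicate 2, 25 keratin genes (46.3%) had a peak, beside 57.4% of all protein-coding genes. Overlapping peaks of both replicates, called a shared region below, lay at 13 keratin genes (24.1%) and at 27.4% of all protein-coding genes. All 3 shares of keratin genes were below the background share. Keratin genes are short, with a median length of 6.77 kb against 27.2 kb over all protein-coding genes, so their windows covered only 1.20 Mb. Counted per megabase of window, replicate 1 had 15 peaks, replicate 2 had 25 and shared regions numbered 10.8. The same densities over the windows of all protein-coding genes were 8.96, 17.5 and 5.35. By gene, the keratin shares were thus close to the background in replicate 1 and for shared regions, and lower in replicate 2. By window length the densities stood above it. No test was applied to either difference. The density of shared regions was also above the background in both gene lists compared below, at 9.44 and 9.78 per Mb.

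The 13 genes with a shared region were KRT2, KRT3, KRT4, KRT7, KRT8, KRT10, KRT12, KRT18, KRT23, KRT39, KRT80, KRT81 and KRT86. The number of distinct regions was also 13, because 5 of them lay in the windows of 2 keratin genes each and several genes held more than 1. A further 16 keratin genes had peaks without an overlap between the replicates. Among these, KRT1, KRT13 and KRT15 had a peak of each replicate at different positions, 4 genes had a peak in replicate 1 only and 9 in replicate 2 only. The remaining 25 genes had no listed peak.

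The clusters differed in their counts. On chromosome 12, 14 of 27 keratin genes had a peak in replicate 1, 15 in replicate 2 and 9 a shared region, and 8 had none. On chromosome 17, 6 of 27 had a peak in replicate 1, 10 in replicate 2 and 4 a shared region, and 17 had none. Of all protein-coding genes, 39.0% had a peak in replicate 1, 57.4% in replicate 2 and 27.4% a shared region. The chromosome 12 shares were above these in replicate 1 (51.9%) and for shared regions (33.3%), and slightly below in replicate 2 (55.6%). The chromosome 17 shares were below the background in each case, with 22.2% in replicate 1 and 14.8% for shared regions. No test was applied. The density of shared regions was closer between the clusters, at 11.8 per Mb of window on chromosome 12 and 9.55 per Mb on chromosome 17. Over the whole clusters, with the stretches outside the windows included, the order was the other way, with 14.9 shared regions per Mb on chromosome 12 and 18 per Mb on chromosome 17. The widest gap between neighbouring summits of either replicate in the chromosome 12 cluster was 162 kb and held 7 keratin genes. Of these, KRT6B and KRT72 had a replicate 1 peak in their windows, at the edges of the gap, and KRT5, KRT6A, KRT6C, KRT71 and KRT74 had none. On chromosome 17, KRT24 to KRT28, the 5 genes at the KRT24 end of the cluster, had no peak. The neighbouring hair keratins KRT32, KRT35, KRT37 and KRT38 had none either.

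**Figure D1:**
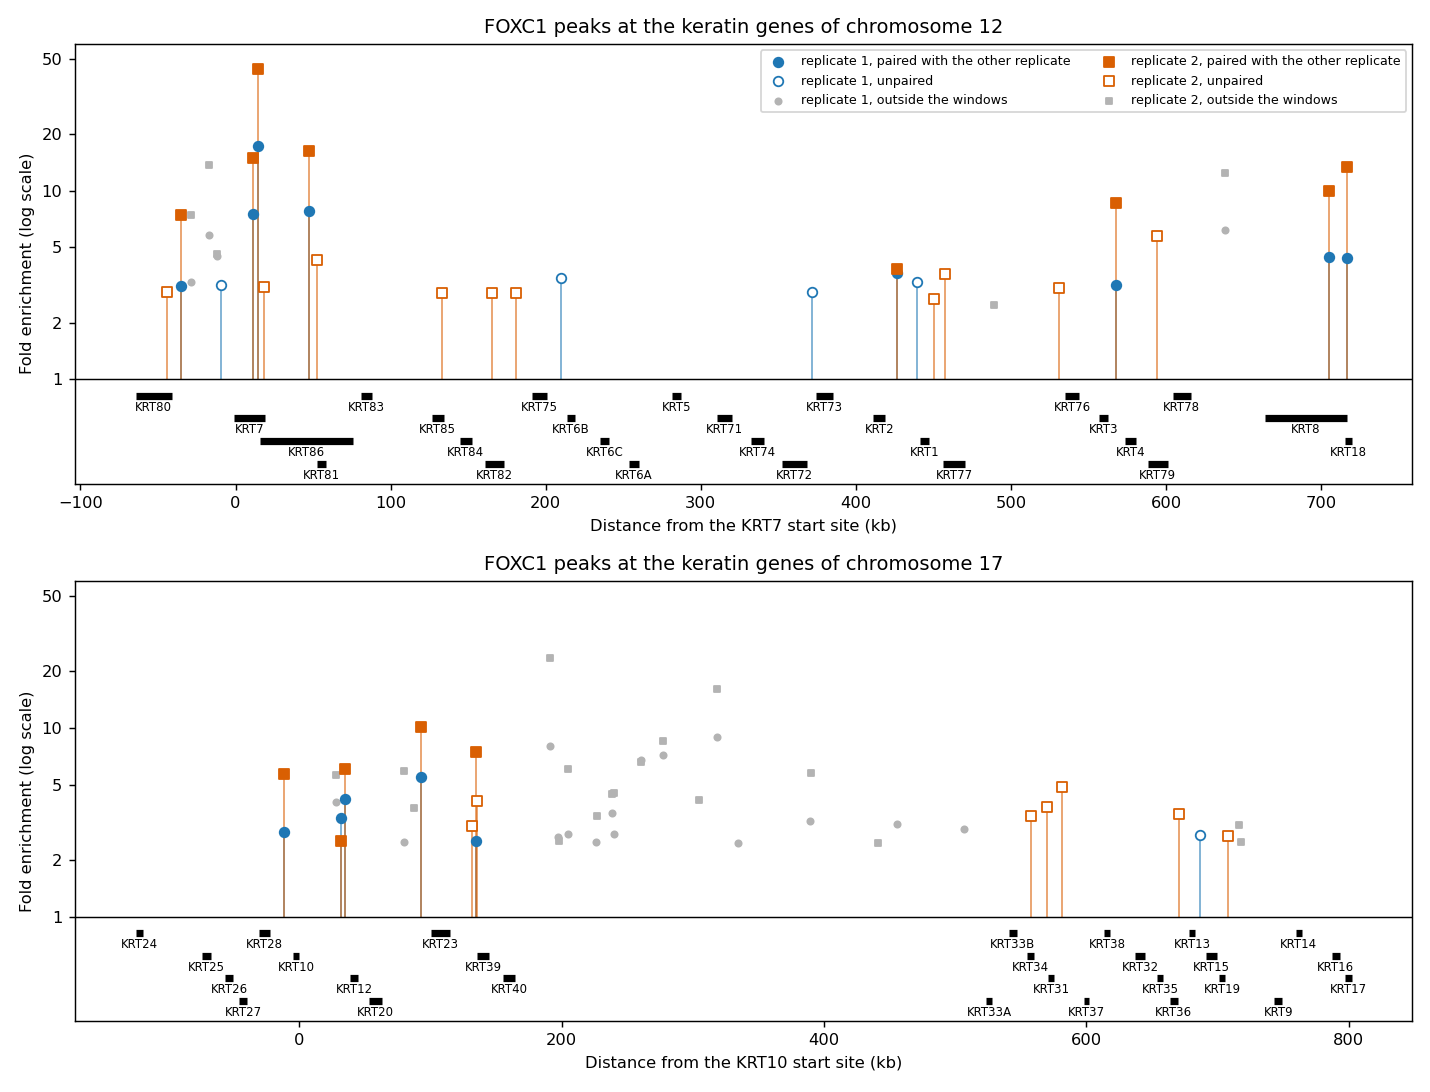
Fold enrichment of each FOXC1 peak (log scale) against distance in kb from the KRT7 start site on chromosome 12 (top) and from the KRT10 start site on chromosome 17 (bottom), with circles for replicate 1, squares for replicate 2, filled symbols for peaks paired between the replicates, open symbols for unpaired peaks and grey for peaks outside the 10 kb windows. Black bars are keratin gene bodies, spread over rows only to separate their names. The highest symbols, 17.2 and 44, stand in KRT7, and no symbol stands above KRT5 or KRT14.

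The simple epithelial keratins, which form the filaments of single-layered and glandular epithelia, held the strongest signal of the 54 genes. Of their 5 genes, KRT7, KRT8 and KRT18 had shared regions, KRT19 had a peak in replicate 2 only and KRT20 had none. The strongest region lay at chr12:52640979-52641780, in intron 7 of KRT7, the type II keratin of glandular and urothelial cells. Its fold enrichment over the local background was 17.2 in replicate 1 and 44 in replicate 2, a mean of 30.6 ± 18.9 (SD, n = 2). Both values were high among all 13238 shared regions, at percentiles 96.9 and 98.7 of their replicates, and the region stood at order 454 when regions were ranked by their weaker replicate. The number of reads over the summit, worked out from the deposited values, was 89 (95% Poisson interval 71.5 to 109.5) in replicate 1 and 242 (212 to 274) in replicate 2. These intervals, here and below, were exact and cover counting error only. The summits of the replicates were 9 bp apart. They lay 14317 bp downstream of the main KRT7 start site, but 98 bp upstream of the start of a short KRT7 transcript and 112 bp upstream of the start of the antisense gene KRT7-AS.

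A second shared region of KRT7 lay at chr12:52637604-52638308, in intron 6. Its fold enrichment was 7.54 in replicate 1 and 15 in replicate 2, at percentiles 85.4 and 86.1, with 40 (28.6 to 54.5) and 78 (61.7 to 97.3) reads over the summits. It was 183 bp upstream of the start of another annotated KRT7 transcript. KRT7 also had an unpaired peak in each replicate, at 3.18 in replicate 1 and 3.09 in replicate 2, so its peaks within 1 gene window ranged from 3.09 to 44. Both KRT7 intron regions also fell inside the window of the hair keratin KRT86, whose longest annotated transcripts begin inside KRT7, and they were counted for both genes.

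KRT8 and KRT18, the primary filament pair of simple epithelia, are neighbouring genes transcribed in opposite directions. Through the long KRT8 transcripts, they had a region in common at chr12:53343477-53344026. Its summit was in the first intron of the main KRT18 transcript, 879 bp from the KRT18 start, in a non-coding exon of another KRT18 transcript and 43 bp upstream of the start of the longest KRT8 transcripts. The fold enrichment was 4.41 in replicate 1 and 13.3 in replicate 2, with 23 (14.6 to 34.5) and 87 (69.7 to 107) reads. It had the highest ratio between replicates of the 13 regions, at 3.01, and the largest distance between summits, at 85 bp. A second KRT8 region at chr12:53331607-53332096 was enriched 4.45-fold in replicate 1 and 9.91-fold in replicate 2, with 22 and 51 reads. It lay in an intron of the long KRT8 transcripts, 10796 bp upstream of the KRT18 start. Both regions depended on those long transcripts, since with the main transcript alone KRT8 had no shared region while KRT18 kept its own.

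KRT19, the type I keratin without a tail domain, had a single weak peak 2441 bp upstream of its start site in replicate 2, with a fold enrichment of 2.68, 13 reads and a −log10 q of 0.875. KRT20, the umbrella cell keratin, had no listed peak within 10 kb in either replicate. The urothelial keratins of this role therefore ranged from a region in the top few percent of the series to none.

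The basal keratins KRT5 and KRT14, the partner pair of dividing cells in stratified epithelia, had no listed peak in either replicate. KRT15, a further basal type I keratin, had an unpaired peak in each replicate, at 2.7 in replicate 1 and 2.68 in replicate 2, which were also counted for its neighbours KRT13 and KRT19. None of the 3 basal genes had a shared region, which lay at 27.4% of all protein-coding genes. A peak lay at 39.0% of all protein-coding genes in replicate 1 and at 57.4% in replicate 2. With only 3 basal genes, their counts cannot be told apart from these shares, and no test was applied. The stress and wound keratins, which are induced when stratified epithelia are injured, were similar in count. KRT6A, KRT6C, KRT16 and KRT17 had no peak, and KRT6B had a replicate 1 peak of 3.46 that it shared with the window of KRT75, a keratin of the hair companion layer. These genes have near-identical copies, where reads can be hard to place. The share of 75-base stretches, the read length, that occurred once in the reference was 71.5% within the body of KRT6C, 78.1% in KRT6B, 86.3% in KRT6A and over 95% in KRT14, KRT16 and KRT17. Over the windows of the 25 genes without a peak, this share was at least 93.9%, with a median of 99.1%, beside at least 89.9% and a median of 99% for the 13 genes with a shared region.

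**Figure D2:**
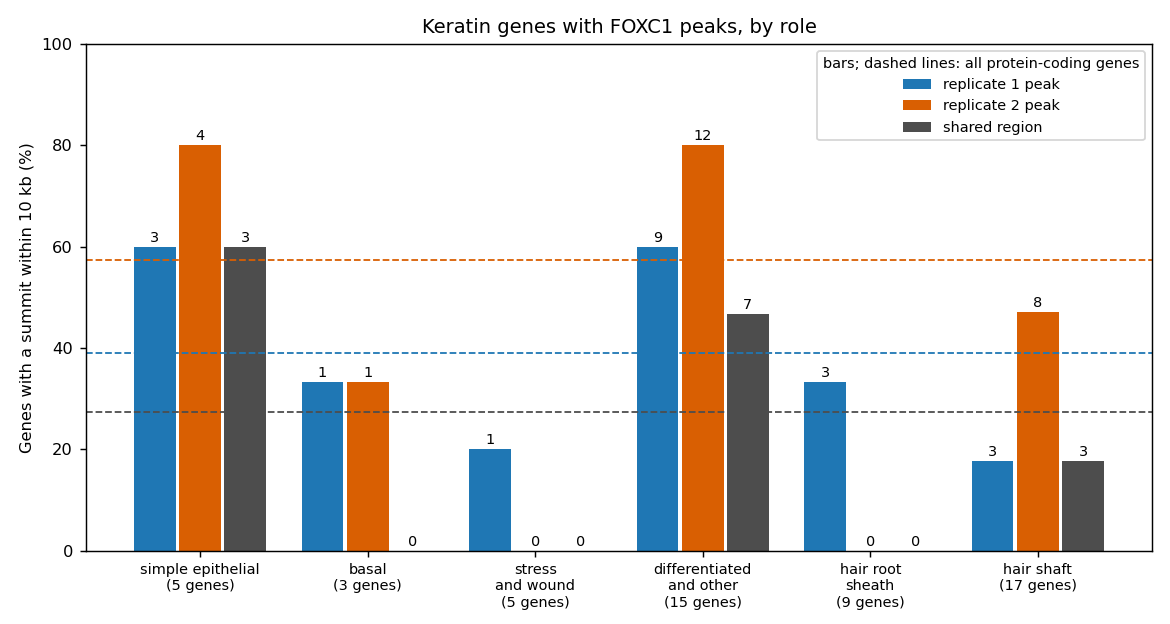
Share of keratin genes in each role (%, bars from 0) with a summit within 10 kb in replicate 1, in replicate 2 and in a shared region, with the number of genes above each bar and the shares of all protein-coding genes as dashed lines. Shared regions lay at 3 of 5 simple epithelial and 7 of 15 differentiated keratins, and at none of the basal, stress or root sheath keratins.

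The keratins of differentiated stratified and other epithelia formed the group with most shared regions by count. Of 15 genes, 9 had a peak in replicate 1, 12 in replicate 2 and 7 (46.7%) a shared region, and KRT9, KRT24 and KRT78 had none. The shares of all protein-coding genes were 39.0%, 57.4% and 27.4%. All 7 shared regions of this group lay in the 10 kb flanks, and none lay in a keratin gene body. The simple epithelial keratins had a higher share with a shared region, 3 of 5. Their density was also higher, at 23.6 shared regions per Mb of window against 18.3. The order of the shares rested on KRT8. With main transcripts alone it was the only keratin gene to lose its shared regions, and the differentiated keratins then had the higher share. KRT23, a type I epithelial keratin, had the strongest shared region of the differentiated keratins, at chr17:39071516-39072144, 7.08 kb beyond the 3′ end of the gene. The fold enrichment was 5.50 in replicate 1 and 10.1 in replicate 2, with 49 (36.3 to 64.8) and 99 (80.5 to 121) reads. As many reads in replicate 1 gave 7.82 in KRT86, because the local background at KRT23 was higher, at 8.09 reads in replicate 1.

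KRT3, a corneal keratin, and KRT4, the type II keratin of moist stratified mucosa, had a region in common at chr12:53194505-53195078, with values of 3.18 and 8.63 in replicates 1 and 2. It lay 4849 bp upstream of KRT3. KRT12, the corneal partner of KRT3, had separate regions 4.05 kb and 6.95 kb from its gene body, within introns of the long non-coding gene ENSG00000265359. The nearer had values of 4.19 and 6.06, and the farther 3.35 in replicate 1 and 2.52 in replicate 2. The farther region was the only one of the 13 with a lower value in replicate 2. KRT13, the mucosal partner of KRT4, had a replicate 1 peak of 2.7 and a replicate 2 peak of 3.48 that did not overlap.

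KRT80, a type II keratin of differentiating epithelia, had a shared region 5900 bp upstream of its start, in an intron of LINC00592, with values of 3.13 and 7.44. KRT10, the type I keratin of the suprabasal epidermis, had a region 7.46 kb from its body, with 2.82 and 5.73. KRT2, a keratin of the upper epidermis, had a region 7751 bp upstream of its start, with 3.68 and 3.86, the closest agreement between replicates of the 13. These 3 regions all lay outside the keratin gene bodies, and they were weak, with 17 to 19 reads over the summit in replicate 1.

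The other differentiated keratins had unpaired peaks only. KRT79, a keratin of skin and hair canal, had the highest unpaired value of the keratin windows, 5.73 in an intron in replicate 2, with 29 reads and a −log10 q of 11.1. KRT1, the partner of KRT10, had a replicate 1 peak of 3.29 and replicate 2 peaks of 2.68 and 3.63, which it shared with the window of the sweat duct keratin KRT77. KRT76, a keratin of the palate, had a replicate 2 peak of 3.06.

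Among 17 hair shaft keratins, which build the hard filaments of hair and nail, 3 (17.6%) had a shared region and 9 had no peak. A shared region lay at 27.4% of all protein-coding genes. The KRT86 window took in both KRT7 intron regions, and that in intron 7 was the strongest in the windows of this group. Outside KRT7, the cortex keratins KRT81 and KRT86 had the strongest in common, at chr12:52674030-52675323 in intron 2 of KRT86. It was enriched 7.82-fold in replicate 1 and 16.3-fold in replicate 2. The reads over the summits were 49 (36.3 to 64.8) and 107 (87.7 to 129). The body of KRT81 was the least unique of the 54, with 54.6% of 75-base stretches occurring once, but in the region itself, as in each of the 13 shared regions, every such stretch occurred once. A weaker replicate 2 peak of 4.29 lay nearby in KRT86. KRT39 had a shared region 1352 bp from its body with values of 2.50 and 7.48, besides replicate 2 peaks of 3.03 and 4.10.

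The remaining hair shaft peaks were in replicate 2 alone. KRT34, a cortex keratin, had an intronic peak of 3.40 at chr17:39536401-39536677, 2052 bp downstream of its start, with 18 reads. KRT31, a neighbouring cortex keratin, had peaks of 3.83 and 4.85. KRT36 had a peak of 3.48, 502 bp upstream of its start, KRT85 a peak of 2.87, and KRT82, a cuticle keratin, had peaks of 2.87 at separate positions. Of 9 hair root sheath keratins, KRT75 shared the peak at KRT6B, KRT72 and KRT73 shared a replicate 1 peak of 2.91, and the other 6 had none.

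The replicates were next compared over the 13 shared regions at keratin genes. The median fold enrichment was 4.19 in replicate 1 and 8.63 in replicate 2, beside 3.79 and 6.71 over all 13238 shared regions. Values were higher in replicate 2 in 12 of the 13 regions, and in 91.9% of all shared regions. Divided by the replicate 1 value, the replicate 2 value had a median of 2.08 and ran from 0.753 to 3.01, beside 1.69 over all shared regions. The difference between replicates was therefore seen across the series. In the order of their mean values, neighbouring keratin regions had overlapping ranges, except that the KRT7 intron 7 region stood above the KRT86 intron 2 region in both replicates, and the KRT2 region above the farther KRT12 region.

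**Figure D3:**
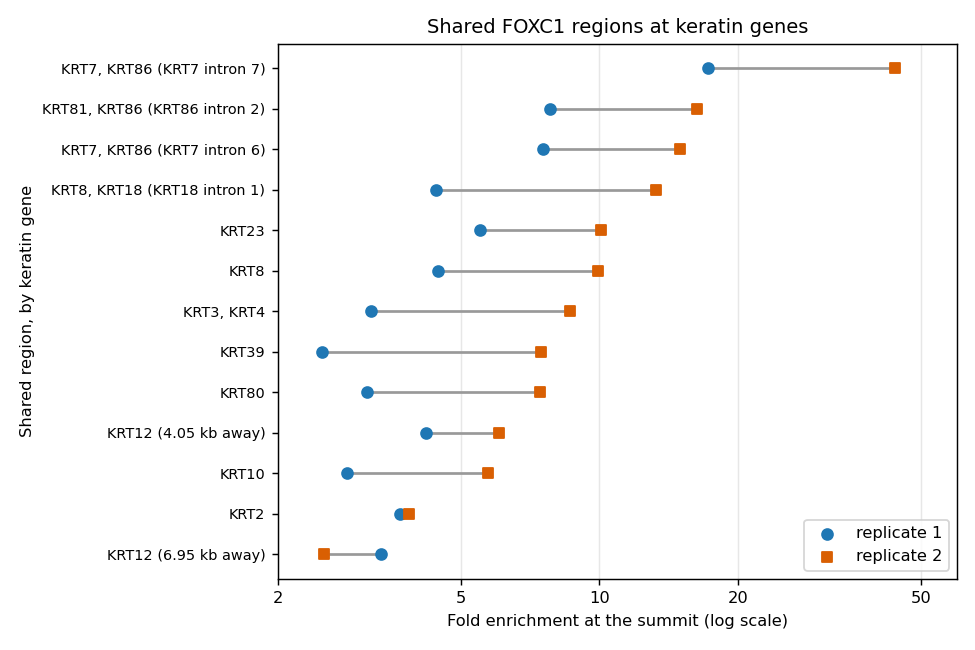
Fold enrichment at the summit (log scale) of the 13 shared regions at keratin genes, with circles for replicate 1, squares for replicate 2 and a line joining them. Replicate 2 is higher in all regions but the lowest, which lies 6.95 kb from KRT12.

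A stricter threshold was set at a −log10 q of at least 5 in both replicates. It was passed by 7 of the 13 regions (53.8%) and by 50.8% of all shared regions. These regions lay at 7 keratin genes, KRT7, KRT8, KRT12, KRT18, KRT23, KRT81 and KRT86, while 16.5% of all protein-coding genes had such a region. Unpaired peaks at keratin genes were weaker. The 5 in replicate 1 ranged from 2.7 to 3.46 in fold enrichment with 13 to 20 reads, and none reached a −log10 q of 5. The 17 in replicate 2 ranged from 2.68 to 5.73 with 13 to 29 reads, and 5 of them reached it.

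**Figure D4:**
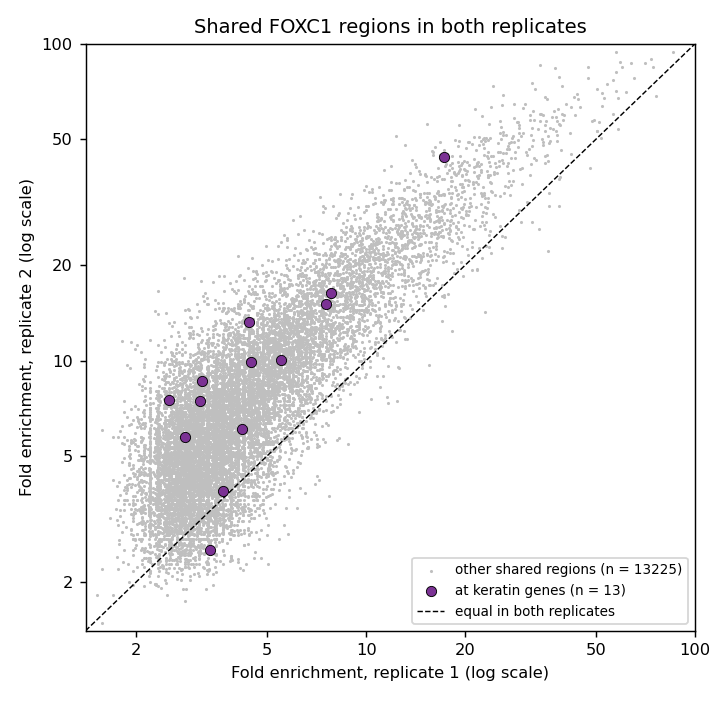
Fold enrichment in replicate 2 against replicate 1 (both log scales) for the shared regions, with the 13 at keratin genes as large filled circles, the others in grey and equality as a dashed line. The keratin regions lie within the grey cloud, 12 of them above the line, and the KRT7 intron 7 region is the farthest right at 17.2 and 44.

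Letters of a forkhead spelling occurred within 50 bp of the midpoint between the summits in 8 of the 13 keratin regions (61.5%), beside 48.7% of all shared regions. In control windows of the same length 500 bp downstream, they occurred in none of the 13 and in 10.8% of all. The AP-1 spelling occurred in 3 of the 13 (23.1%) and in none of their control windows, beside 16.6% and 1.93% over all shared regions. The 3 with AP-1 were the KRT7 intron 7 region, the KRT39 region and the farther KRT12 region, of which the last also held GTAAACA. The regions at KRT10 and KRT80 and the nearer KRT12 region held neither spelling. Among unpaired peaks at keratin genes, a forkhead match occurred in none of the 5 in replicate 1 and in 1 of 17 in replicate 2, that of KRT79. The share over all unpaired peaks and control windows were not computed for these, so the counts are not set against a background.

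Of the 13 regions, 4 (30.8%) had their summit within 2 kb of an annotated start site of any gene, beside 2654 of all 13238 shared regions. These were both KRT7 intron regions, the KRT86 intron 2 region, which was 1432 bp upstream of the start of the gene ENSG00000257830, and the KRT8 and KRT18 region. With the main transcript of each gene only, 3 remained. Gene bodies of keratins held 5 of the 13 regions, and the others lay between 1352 bp and 7751 bp from the nearest keratin body.

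Other intermediate filament genes and the genes that anchor filaments to cell junctions were counted in the same way. The share of all protein-coding genes with a shared region was 27.4%. Of 14 other intermediate filament genes, 4 (28.6%) had a shared region, the strongest at BFSP1, a filament gene of the eye lens (8.54 and 16.9), and at the lamin genes LMNB2 (6.81 and 17.1) and LMNA (5.62 and 10.9). VIM, the filament gene of mesenchymal cells, had a peak in replicate 2 only. Of 20 desmosome, hemidesmosome and linker genes, 8 had a shared region, and DST, which links keratin to hemidesmosomes, had the strongest, with 35.4 in replicate 1 and 67.1 in replicate 2. EVPL (8.71 and 21.3) and PKP4 (7.21 and 25.2) followed. These genes are longer than keratins, with median lengths of 23.2 kb and 44.5 kb. Shared regions per megabase of window numbered 9.44 and 9.78, beside 10.8 at the keratins and 5.35 over all protein-coding genes.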

How the data were processed

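J82 FOXC1 ChIP and input were each sequenced in 2 libraries of single-end 75-bp reads. Only the 2 FOXC1 peak lists, called by the authors for each replicate, were used. Reads had been mapped to hg19 with BWA and peaks called with MACS2 2.2.7.1 (tools from the submitters' processing notes). The filter behind these lists and the treatment of reads with several matches are not given in the sources used here. Their lowest −log10 p was 2.00 in replicate 1 and 2.02 in replicate 2, and peaks with a −log10 q of 0.875 were included, so weak peaks are counted. The paper also describes reproducible peaks called with the IDR tool, and that set was not used here. The score deposited by the authors is the −log10 p multiplied by 10. The fold enrichment deposited by the authors is the ratio of ChIP to local background at the summit, each with 1 added. The −log10 p and −log10 q deposited by the authors compare the same quantities.

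The lists held 22447 and 41832 peaks. Reads over each summit were solved from these ratios and p-values to within 0.001 of the −log10 p, for every peak on chromosomes 1 to 22, X and Y after a check on simulated data. The values gave estimates of 43.2 M and 41.5 M ChIP reads (genome size 2.7 Gb assumed) and median summits of 18 and 23 reads.

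Peaks overlapping by at least 1 bp formed a shared region, with the summits of both replicates required in the window. Genes were taken from GENCODE 44 on GRCh37, with all transcripts. Motifs were searched within 50 bp of summits, or for shared regions within 50 bp of the midpoint between the summits of the replicates. Python 3.11.15, pandas 2.3.3, numpy 2.4.6, scipy 1.17.1 and pysam 0.24.0 were used. No group contrast exists in the peak lists, so counts were described beside those of all protein-coding genes, without a test. The keratins, their roles and the comparison lists were chosen with earlier results of these data known. Genes with a shared region or a peak in 1 replicate were named, as were 13 keratins set by name, and the 3 strongest genes of each comparison list; sequences were limited to the strongest regions by weaker rank. Alternatives covered the window, thresholds, overlap, motif distance, promoter distance, transcripts and each replicate alone.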

Additional observations from a re-analysis of the deposited data

How the results depend on the processing

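The window and the thresholds moved the counts most. The counts of keratin genes with a peak in replicate 1, in replicate 2 and with a shared region, and the number of shared regions, were 20, 25, 13 and 13 as reported. They became 4, 10, 4 and 5 for gene bodies alone, and 43, 45, 25 and 23 with 50 kb flanks. At a −log10 q of at least 5 they were 7, 14, 7 and 7, and at a fold enrichment of at least 5 they were 4, 13, 4 and 4. At that q limit, 16.8% of all protein-coding genes had a peak in replicate 1, 34.5% in replicate 2 and 16.5% a shared region. For gene bodies, 50 kb flanks and the fold enrichment limit, the shares of all protein-coding genes were not computed. Those counts therefore do not show whether keratin genes moved relative to the background. Forkhead matches within 25 bp of the summit were found in 3 of 13 regions, AP-1 matches within 100 bp in 5 (reported, 3), and a 5 kb limit to start sites took in 7 (reported with 2 kb, 4). With each replicate alone, genes ranged from 20 to 25 and peaks from 18 to 30. Forkhead matches then ranged from 6 of 18 to 10 of 30 peaks, 33.3% in each replicate, below the 61.5% of shared regions; these peaks include unpaired ones and are centred on each replicate's own summit. Besides the replicates alone, 20 alternative values stayed within 1.5 times the reported count or within the spread of the replicates, and the 19 above did not. Main transcripts alone, added after the data were seen, gave 19, 23, 12 and 12. No paired analysis was possible because the peak lists allow no comparison between groups. The number of replicates and summits of 13 to 29 reads limit what can be said of unpaired peaks.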

Other observations

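Shared regions also lay between the keratin genes, outside the 10 kb windows. The chromosome 12 cluster, from KRT80 to KRT18, held 4 of them and the chromosome 17 cluster, from KRT24 to KRT17, held 12. Of these 16 regions, 10 were nearest to keratin-associated protein genes, which encode the matrix of the hair shaft between its keratin filaments. The strongest were a region in KRTAP3-1 at chr17:39169391-39170325, enriched 8.0-fold in replicate 1 and 23.4-fold in replicate 2, and a region 208 bp from KRTAP4-6 at chr17:39296743-39297362, with 8.91 and 16.0. Both exceeded every shared region in the keratin windows of chromosome 17, where KRT23 was highest at 5.50 and 10.1. Keratin-associated protein genes are a family of similar copies, but in 9 of the 10 regions every 75-base stretch occurred once in the reference. In the other, near KRTAP4-16, 83.3% did. On chromosome 12 the strongest regions outside the windows had values of 6.20 and 12.4, 22273 bp from KRT78, a gene with no peak within 10 kb, and of 5.83 and 13.7, 16616 bp from KRT7.

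The edge of the window decided single cases. In replicate 2 a peak of 3.06 lay 10586 bp from KRT19, just outside, and a shared region with values of 4.03 and 5.66 lay 10787 bp from KRT12.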
